A study of Mus musculus with 6 samples.

Results

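The genes described here are 8 drug efflux pumps of the ATP-binding cassette (ABC) family: Abcb1a, Abcb1b, Abcg2, Abcc1, Abcc2, Abcc3, Abcc4 and Abcc5. They were measured in colonic epithelial cells of mice that received antibiotics while feeding again after a fast. Each is represented by the probe set that names it alone, and each of the 8 has 1 such probe set. They are 8 of the 19938 genes that the array represents in this way. The family was chosen from the measured values, because Abcb1a was among the genes that differed most clearly between the groups, so the difference of Abcb1a is given as a description. The other 7 genes are pumps of the same kind.

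Both groups consisted of wild-type male BALB/c mice, 6 weeks old, which went without food for 36 h and were then fed again for 24 h. In 3 samples the mice had food only, called re-fed here. In the other 3, called antibiotics, the mice also received antibiotics during that feeding period, and the drugs are not named in the sources used here. From each sample, colon cells that carried the epithelial antigen EpCAM and lacked the leukocyte antigen CD45 were collected by cell sorting, and their RNA went onto 1 Affymetrix array. Samples within a group are labelled as biological replicates, and how many mice went into each is not stated. Neither mice with uninterrupted food nor fasted mice were analysed here, so each difference is for antibiotics given on top of fasting and feeding.

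ABC efflux pumps are membrane proteins that hydrolyse ATP to move drugs, plant compounds, bacterial metabolites, bile acids and conjugates out of the cell. In the intestine, P-glycoprotein (encoded in mice by the paralogs Abcb1a and Abcb1b) and the breast cancer resistance protein Abcg2 sit in the apical membrane. So does the multidrug resistance-associated protein Abcc2, and these pumps return their substrates to the lumen. Abcc1 and Abcc3 sit in the basolateral membrane and pass conjugates towards the blood, while Abcc4 and Abcc5 export nucleotides and nucleotide analogs. Several pump genes are known targets of the xenobiotic receptors PXR and CAR.

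Abcb1a, Abcb1b and the phospholipid transporter Abcb4 follow each other among the protein-coding genes of chromosome 5. Because the Abcb1a signal on these arrays could be tested and that of Abcb1b was too dim, the 250 bases before the annotated start of each are shown, 5′ to 3′ on the plus strand, from RefSeq on the build GRCm38.p6. They lie at chr5:8566841-8567090 for Abcb1a and at chr5:8797897-8798146 for Abcb1b. Capitals mark matches, on either strand, to the CCAAT box (CCAAT), the GC box (GGGCGG), the TATA box (TATAAA), nuclear receptor half-sites (AGGTCA or AGTTCA) and the AP-1 site (TGANTCA), and no match overlapped another.
Abcb1a: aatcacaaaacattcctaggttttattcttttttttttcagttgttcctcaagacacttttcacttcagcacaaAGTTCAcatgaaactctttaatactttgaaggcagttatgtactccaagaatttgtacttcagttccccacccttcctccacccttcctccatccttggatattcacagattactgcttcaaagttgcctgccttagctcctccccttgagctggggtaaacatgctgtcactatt
Abcb1b: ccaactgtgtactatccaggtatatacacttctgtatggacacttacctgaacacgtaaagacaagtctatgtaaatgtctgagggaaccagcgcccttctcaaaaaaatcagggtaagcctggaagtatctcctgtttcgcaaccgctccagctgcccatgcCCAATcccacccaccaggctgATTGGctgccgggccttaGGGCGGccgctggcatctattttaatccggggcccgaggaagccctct

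The Abcb1a stretch held 1 match, the half-site AGTTCA beginning 176 bases before the start. Of the 32851 stretches of this length in the promoter table, 11.8% hold that half-site. The Abcb1b stretch held 2 CCAAT boxes, beginning 87 and 66 bases before the start, and 1 GC box at 48 bases. These motifs occur in 33.8% and 32.7% of all stretches. Neither stretch held the half-site AGGTCA (found in 14% of all), a TATA box (12.4%) or an AP-1 site (6.75%). The share of G and C was 40.4% for Abcb1a and 52.8% for Abcb1b, against a median of 52.4%. A match describes letters, and binding of a factor was not measured. The promoter table gave 1 start each for Abcb1a and Abcb1b, and whether these cells use that start was not measured. The promoter table held 6 of the 8 pump genes.

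The arrays limit what can be read from these genes in a few ways. Array medians of the deposited log2 values ran from 5.87 to 6.08 in the re-fed group and from 5.63 to 6.17 with antibiotics, and the values below are therefore quantile normalised. Replicates 2 and 3 of the re-fed group share with replicates 1 and 2 of the antibiotics group, and with each other, 372 to 435 identical values per pair of arrays, against 42 to 198 for every other pair. No label or header names a run, and the grouping rests on these identical values. Antibiotics replicate 3 has 10829 distinct values to share, where every other array has 34568 or more. The 4 arrays are called the common run, and for each pump the difference among them, normalised on their own, is given beside that over 6 arrays. Genes whose mean lay under 5.81, the 40th percentile of probe sets with a gene, were left untested as dim. All levels below are log2 expression and all differences are log2 differences, antibiotics minus re-fed, with moderated standard errors (SE) and adjusted p from limma over the 12071 genes tested. With RNA from sorted cell populations, fewer cells of a type and less RNA per cell cannot be told apart.

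Abcb1a, the main P-glycoprotein gene of the mouse intestine, was bright in all 6 samples and lower in every antibiotics sample. Without antibiotics, replicates 1, 2 and 3 had levels of 12.23, 12.19 and 12.09, and with antibiotics they had 11.19, 11.44 and 11.05. The same order of replicates is kept for the genes that follow. The re-fed samples lay close together, within 0.14 of each other, and the groups did not overlap, with a gap of 0.65 between the lowest re-fed and the highest antibiotics sample. Group means were 12.17 ± 0.070 and 11.23 ± 0.20 (SD, n = 3 each). The difference was -0.94 (SE 0.12, 95% interval -1.22 to -0.67), which puts the antibiotics level at 52% of the re-fed level.

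The adjusted p of Abcb1a in the limma fit was 0.0441. Because the gene was chosen for its difference in this contrast, that value supports nothing further here. In the same fit 0.0497% of all genes passed the threshold of 0.05 in the lower direction. Only 27 of the 12071 genes had a more negative difference than Abcb1a. In the common run the difference of Abcb1a was -0.81. On the deposited scale, before any further normalisation, the levels were 12.09, 12.34 and 12.23 without and 11.33, 11.53 and 10.58 with antibiotics. There too the groups did not overlap, and antibiotics replicate 3, the array with the lowest median, had the lowest value. The adjusted p lay above 0.05 when any array except antibiotics replicate 2 was left out, between 0.0699 without antibiotics replicate 3 and 0.218 without antibiotics replicate 1. The difference itself ran from -0.98 to -0.84 in those 5 fits, whereas leaving out antibiotics replicate 2 gave -1.055 at an adjusted p of 0.0488 (limma).

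**Figure D1:**
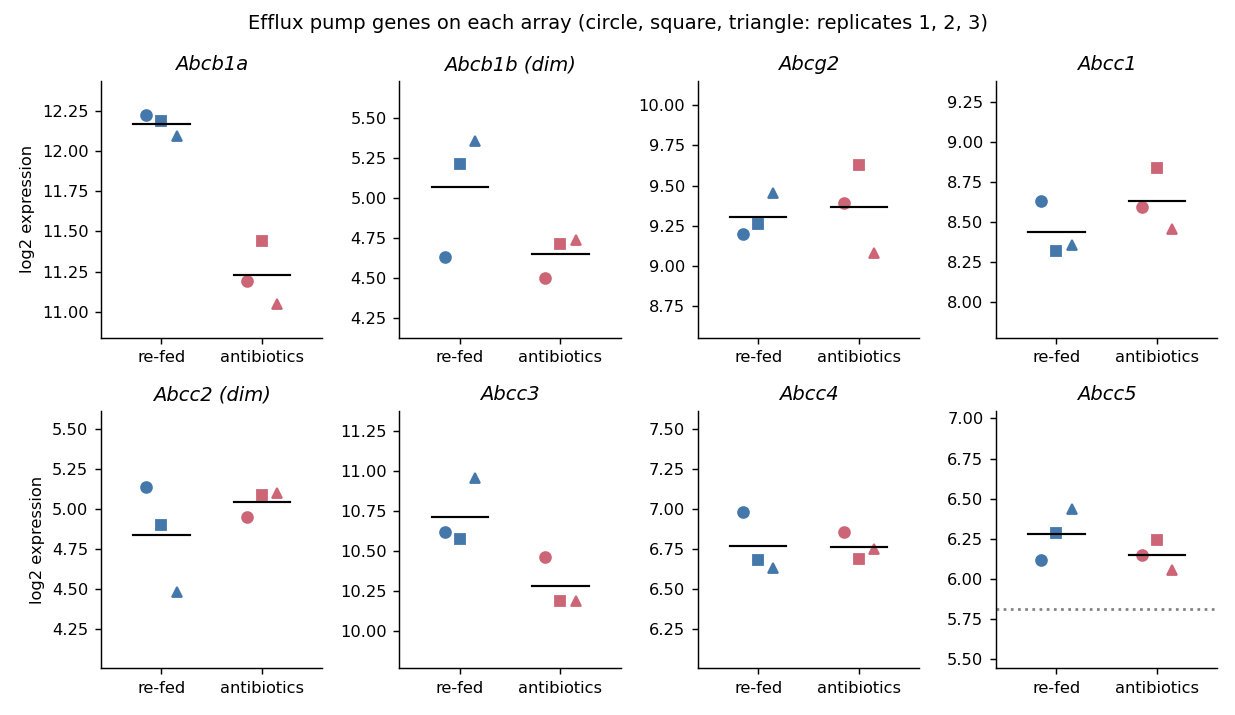
Log2 expression (y axis, with the same span in every panel) of the 8 efflux pump genes on each array, by group (x axis). Circles, squares and triangles are replicates 1, 2 and 3, horizontal bars are group means, and the dotted line in the Abcc5 panel is the floor for dim signal at 5.81. Abcb1a and Abcc3 are the panels in which the antibiotics samples all lie below the re-fed samples.

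Abcb1b, the second P-glycoprotein gene, was dim on every array and was not tested. Its levels were 4.63, 5.21 and 5.36 in the re-fed samples and 4.50, 4.71 and 4.74 with antibiotics. Re-fed replicate 1 lay within the range of the antibiotics samples, so the groups overlapped. The means were 5.07 ± 0.38 and 4.65 ± 0.13 (SD, n = 3 each), a difference of -0.42, and -0.67 in the common run, which leaves out re-fed replicate 1. Without the floor for dim signal, limma gave Abcb1b an adjusted p of 0.588. Signal shared between the probes of these close paralogs was not examined.

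Abcg2, the apical pump for urate, porphyrins and many sulfated compounds, had levels of 9.20, 9.26 and 9.45 without and 9.39, 9.63 and 9.08 with antibiotics. Antibiotics replicates 2 and 3 were the highest and the lowest of all 6 samples, so the re-fed range lay inside that of the antibiotics group. The difference was 0.061 (SE 0.15, 95% interval -0.27 to 0.40, adjusted p = 0.897, limma). The interval leaves room for a change of either sign, but not for one as large as that of Abcb1a in the lower direction. Of all genes tested, 73.1% had a difference at least as large as that of Abcg2. The difference of Abcg2 was 0.15 in the common run, and its direction turned with the scaling, to -0.12 on the deposited scale.

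Abcc2, the apical pump for glucuronide and glutathione conjugates, was dim like Abcb1b and was not tested. It had levels of 5.14, 4.90 and 4.48 without and 4.95, 5.09 and 5.10 with antibiotics. The re-fed samples spanned the antibiotics samples, and the difference of 0.21 was smaller than the re-fed SD of 0.33. In the common run Abcc2 differed by 0.33. Of the 4 apical pump genes, then, 2 gave a signal above the floor, Abcb1a and Abcg2.

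Among the basolateral pumps, Abcc3 (multidrug resistance-associated protein 3), an exporter of bile acids and glucuronides, lay lower in all antibiotics samples. Its levels were 10.62, 10.57 and 10.96 in the re-fed samples and 10.46, 10.19 and 10.19 with antibiotics. The groups did not overlap, although the gap was 0.11, and re-fed replicate 3 lay above the other two re-fed samples. Such separation in the lower direction was seen in 10.7% of all genes tested. The difference was -0.44 (SE 0.14, 95% interval -0.74 to -0.13), or 73.9% of the re-fed level, with an adjusted p of 0.259 (limma), so Abcc3 did not pass over all genes. A difference at least as large in either direction was found in 3.93% of genes. In the common run Abcc3 differed by -0.43 and over the 15 alternatives by -0.61 to -0.30, below 0 in each. Alternatives that change only the block, the floor or the choice of probe set cannot change this difference. With groups that do not overlap, leaving out 1 array could hardly turn its sign.

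Abcc1 (multidrug resistance-associated protein 1) exports glutathione conjugates and leukotriene C4. Its levels were 8.63, 8.32 and 8.36 without and 8.60, 8.84 and 8.46 with antibiotics. Re-fed replicate 1 lay among the antibiotics samples. The difference was 0.19 (SE 0.13, 95% interval -0.11 to 0.49, adjusted p = 0.581, limma). It was 0.38 in the common run and -0.0019 on the deposited scale, so its size rested on the arrays used and on their scaling. Whether Abcc1 and Abcc3 responded differently was not tested.

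Neither of the nucleotide exporters, Abcc4 and Abcc5, passed the threshold. Abcc4 had levels of 6.98, 6.68 and 6.64 without and 6.86, 6.69 and 6.75 with antibiotics, so the groups overlapped almost fully. Its difference was -0.0028 (SE 0.12, 95% interval -0.28 to 0.27, adjusted p = 0.996, limma), and 0.12 in the common run. Abcc5 had levels of 6.12, 6.28 and 6.43 without and 6.15, 6.24 and 6.06 with antibiotics, and re-fed replicate 1 lay among the antibiotics samples. Abcc5 differed by -0.13 (SE 0.12, 95% interval -0.39 to 0.13, adjusted p = 0.667, limma), and by -0.17 in the common run. The intervals over 6 arrays leave out a change as large as the estimate of Abcb1a in either direction.

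**Figure D2:**
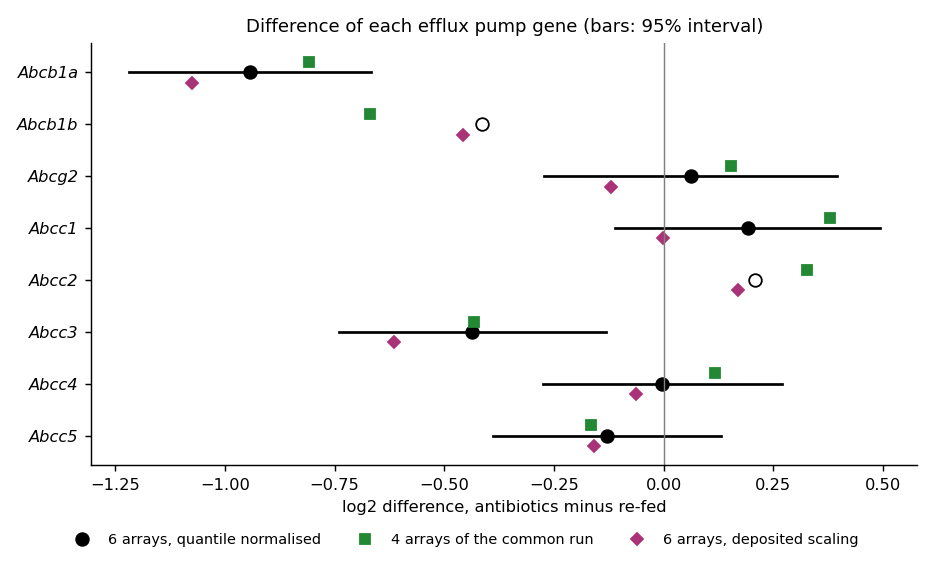
Log2 difference, antibiotics minus re-fed (x axis), of each efflux pump gene (y axis). Circles are 6 quantile-normalised arrays with 95% intervals from limma (open circles without an interval are the dim genes Abcb1b and Abcc2), squares the 4 arrays of the common run and diamonds 6 arrays with the deposited scaling. Abcb1a, Abcb1b, Abcc3 and Abcc5 lie below 0 in all 3, and Abcg2, Abcc1 and Abcc4 change sides of 0.

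In all, 6 of the 8 pump genes lay above the floor and 2 did not. Of the 6, Abcb1a alone passed the threshold over all genes, against 0.058% of genes called in either direction. The groups were apart in 2 of the 6, Abcb1a and Abcc3, both lower, against 19.6% of genes with separate groups in either direction. With Abcb1a chosen for its difference, Abcc3 was the 1 remaining tested pump of 5 with separate groups.

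Among the other genes of the ABC family, a list of 44 genes, 42 had a probe set of their own, 25 lay above the floor and 17 were dim. Most are transporters, but the list also holds Abce1, Abcf1, Abcf2 and Abcf3, which are not membrane transporters. None of the 25 passed the limma threshold over all genes, and 3 had an unadjusted p under 0.05, as did 12.6% of all genes. Their median difference was 0.037, with 14 above and 11 below 0, where all genes tested had a median of 0.0033. The list's median was -0.093 on the deposited scale, on which the median of all genes was -0.118. Groups did not overlap in 4 of the 25, 3 lower and 1 higher, against 10.7% and 8.88% of all genes.

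The 3 with the smallest unadjusted p lay lower with antibiotics. Abcb6, a porphyrin transporter, had levels of 8.51, 8.54 and 8.74 without and 8.01, 7.81 and 7.85 with antibiotics (-0.71, SE 0.11, adjusted p = 0.0692, limma). Its groups did not overlap, and Abcb6 came closest to the threshold of the ABC genes that missed it. Abcd3, which carries fatty acids into peroxisomes, differed by -0.46 (SE 0.099, adjusted p = 0.138, limma), also without overlap. Abca12, a lipid transporter known from the skin, differed by -0.73 (SE 0.31, adjusted p = 0.371, limma), with re-fed levels of 7.58, 8.18 and 8.95 that overlapped those with antibiotics. Abcb4, the neighbour of Abcb1b, was dim at a mean level of 5.55. Abcb1a had the most negative difference of the 31 ABC genes above the floor, and it was chosen for that difference.

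**Figure D3:**
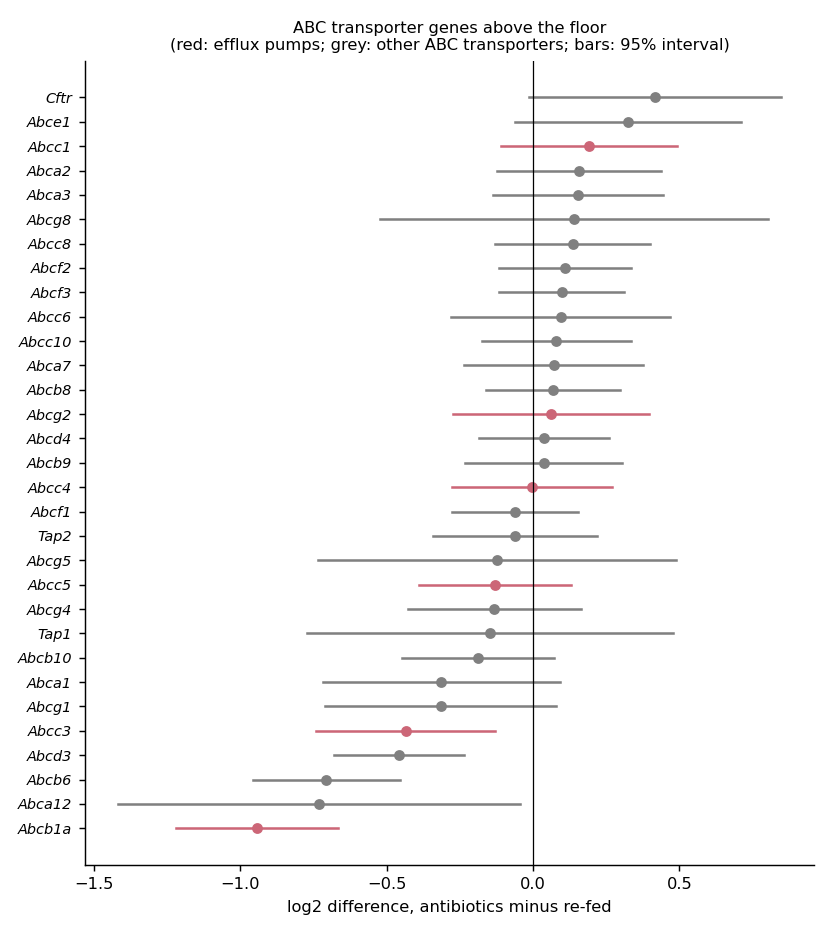
Log2 difference, antibiotics minus re-fed (x axis), of the 31 ABC family genes above the floor (y axis, ordered by difference), with 95% intervals from limma. Red marks the 6 efflux pumps above the floor and grey the 25 other ABC family genes. Abcb1a lies lowest at -0.94, and the other red points lie between -0.44 and 0.19.

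The transcription factors known to act on pump genes, listed together with Keap1, a regulator of the factor Nfe2l2, did not pass the threshold. Of 27 listed, 23 were tested, with a median difference of -0.053 and 10 above and 13 below 0. That median was -0.19 on the deposited scale, -0.16 with arrays centred on their median, -0.13 without antibiotics replicate 2, and above 0 without re-fed replicate 3 (0.0093) or antibiotics replicate 3 (0.012). Groups did not overlap in 6 of the 23 on the lower side and in 2 on the higher, against 10.7% and 8.88% of all genes. Nr1i2, which encodes the xenobiotic receptor PXR, had levels of 9.44, 9.45 and 9.49 without and 9.55, 9.72 and 9.67 with antibiotics. Nr1i2 was 1 of the 2 with antibiotics on the higher side, and Hif1a and Cdx2 were among the 6 on the lower. The difference of Nr1i2 was 0.19 (SE 0.099, adjusted p = 0.464, limma). Hif1a, the oxygen-regulated factor, differed by -0.33 (SE 0.10, adjusted p = 0.259, limma), and Cdx2, the intestinal homeobox factor, by -0.32 (SE 0.11, adjusted p = 0.30, limma).

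Among enzymes induced through PXR and CAR, 11 of 20 were tested and none passed over the 6 arrays, with 5 above and 6 below 0 and a median of -0.20. That median rested on the arrays, the filter and the scaling. It was -0.024 without re-fed replicate 3, -0.033 without antibiotics replicate 1, -0.073 without antibiotics replicate 3, -0.37 without antibiotics replicate 2 and 0.032 with dim genes kept. On the deposited scale it was -0.40, and with centred arrays -0.36. Cyp2c55, a cytochrome P450 of the colon, differed by -1.33 (SE 0.19, adjusted p = 0.0584, limma). In the common run, where 58 of 12074 genes were called, Cyp2c55 differed by -1.26 and passed the threshold (adjusted p = 0.0173, limma). Its relative Cyp2c65 differed by -0.94 (SE 0.26, adjusted p = 0.222, limma), and Alas1, the first enzyme of haem synthesis, by -0.53 (SE 0.11, adjusted p = 0.117, limma). On the higher side, Gstm1, named after its values were seen, had the highest difference of the list, 0.43 (adjusted p = 0.355, limma). The classic PXR and CAR targets Cyp3a11 and Cyp2b10 were dim, at mean levels of 3.71 and 5.01.

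Solute carriers, many of which bring drugs and organic ions into cells, numbered 26, of which 19 were tested and none passed. Their median was -0.048, with 8 above and 11 below 0, and it was -0.18 on the deposited scale and 0.048 without antibiotics replicate 3. Slc28a1, a nucleoside carrier, differed by 0.37 (SE 0.12), Slc22a18, an organic cation carrier-like protein, by -0.31 (SE 0.11) and the prostaglandin carrier Slco2a1 by -0.29 (SE 0.15), at adjusted p from 0.26 to 0.474 (limma). Genes that anchor or move apical transporters had a median of -0.10 over 11 tested, with 3 above and 8 below 0 and none past the threshold. This median too moved with the scaling and the arrays, to -0.30 on the deposited scale, -0.26 with centred arrays, -0.19 without antibiotics replicate 2, -0.17 without re-fed replicate 1 and -0.047 without antibiotics replicate 3. Rab11a, a GTPase of recycling endosomes, differed by -0.35 (SE 0.13), ezrin (Ezr), which ties apical membrane proteins to actin, by -0.32 (SE 0.14) and Pdzk1ip1, a partner of the scaffold Pdzk1, by 0.20 (SE 0.11), at adjusted p from 0.31 to 0.491 (limma).

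**Figure D4:**
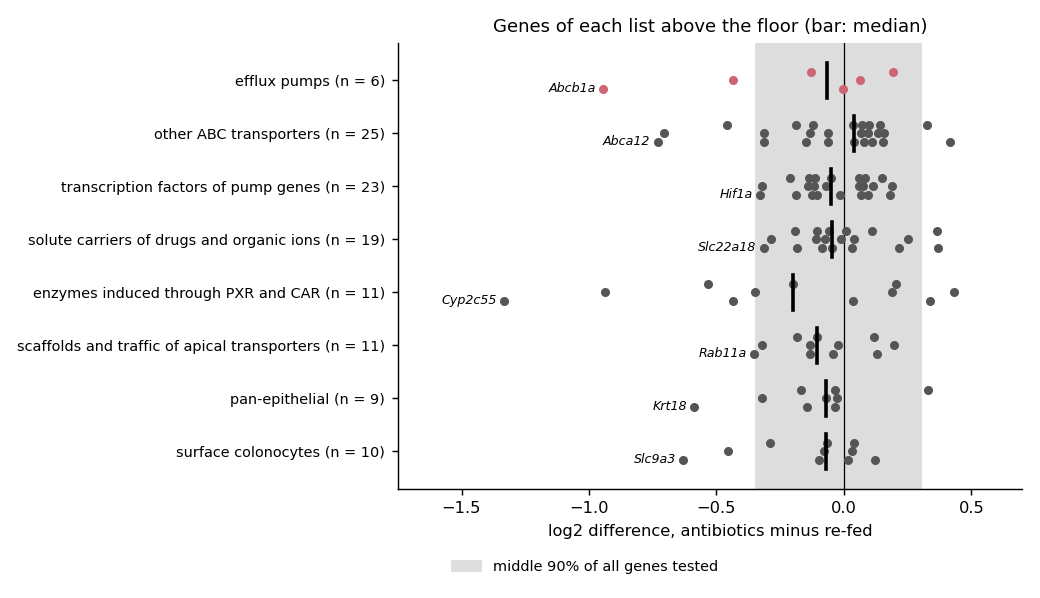
Log2 difference, antibiotics minus re-fed (x axis), of the genes above the floor in each list (y axis, with their number). Each dot is a gene, the black bar the median of the dots and the grey band the middle 90% of all genes tested, from -0.35 to 0.30. The most negative gene of each list is named, and Abcb1a (-0.94) and Cyp2c55 (-1.33) lie far to the left of the band.

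The cells carried the markers of their label. Epcam averaged 12.16 ± 0.11 in re-fed and 12.12 ± 0.065 in antibiotics samples (SD, n = 3 each), and the CD45 gene Ptprc was dim at 5.44 ± 0.11 and 5.40 ± 0.12. All 9 pan-epithelial and all 10 surface colonocyte markers lay above the floor. Of the markers of other cells, 1 of the 8 T cell genes with a probe set of their own lay above it, 2 of 6 for B and plasma cells, 1 of 8 for myeloid cells, 4 of 10 for stroma and endothelium and 3 of 8 for the small intestine.

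P-glycoprotein is known from the apical face of mature columnar cells of the colon, and markers of those cells had differences of both signs. Krt20, a keratin of mature surface cells, averaged 12.57 ± 0.059 in re-fed and 12.11 ± 0.20 in antibiotics samples (SD, n = 3 each; -0.46, SE 0.12, adjusted p = 0.203, limma), and its groups did not overlap. The anion exchanger Slc26a3 differed by 0.016 (SE 0.097) and the carbonic anhydrase Car1 by -0.079 (SE 0.11). Over the 10 surface colonocyte markers the median was -0.072, with 4 above and 6 below 0 and none past the threshold. Groups did not overlap in 3 of the 10, each lower with antibiotics, against 10.7% of all genes on the lower side. The same 3 had an unadjusted p under 0.05 (limma), as did 12.6% of all genes. Beside Krt20 these were the sodium-proton exchanger Slc9a3 (-0.63, SE 0.15, adjusted p = 0.17, limma) and the water channel Aqp8 (-0.29, SE 0.097, adjusted p = 0.289, limma), both named after their values were seen. Slc9a3 had levels of 12.04, 12.02 and 12.53 in the re-fed and 11.50, 11.71 and 11.49 in the antibiotics samples. The mean level of the 10 markers per array ran from 12.4 to 12.6 in the re-fed and from 12.2 to 12.5 in the antibiotics samples. The mean of the 9 pan-epithelial markers ran from 11.7 to 11.8 and from 11.6 to 11.7, a difference of the means of -0.12. Of these 9 genes 8 lay below 0 and 1 above, with a median of -0.069 (-0.18 on the deposited scale), and none passed the threshold. Their groups did not overlap in 4 on the lower side and 1 on the higher, against 10.7% and 8.88% of all genes. The keratin Krt18, named after its values were seen, had levels of 12.15, 12.11 and 12.19 in the re-fed and 11.58, 11.54 and 11.57 in the antibiotics samples (-0.59, SE 0.094, adjusted p = 0.0692, limma). The part of cell composition in the Abcb1a difference was not tested.

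P-glycoprotein is also known in blood vessels and lymphocytes. Pecam1, a marker of endothelium, had levels of 5.73, 6.22 and 6.45 without and 5.73, 5.64 and 5.71 with antibiotics (-0.44, SE 0.17, adjusted p = 0.337, limma). Its mean passed the floor of 5.81 only through re-fed replicates 2 and 3, and re-fed replicate 1 and all antibiotics samples lay under that floor. As with Abcb1b, re-fed replicates 2 and 3 were the high samples and re-fed replicate 1 lay with the antibiotics group. The endothelial markers Cdh5, Kdr, Cldn5 and Plvap were dim. Of the 4 stroma and endothelium markers above the floor, Pecam1 lay below 0 and the other 3 above, with a median of 0.11 (0.0030 without re-fed replicate 2), and none passed the threshold. Their mean ran from 6.41 to 6.61 in the re-fed and from 6.47 to 6.59 in the antibiotics samples. Cd3e, of T cells, differed by -0.15 (SE 0.16, adjusted p = 0.74, limma). The level of Cd3e ran from 6.16 to 6.70 without and from 6.03 to 6.42 with antibiotics. Ptprc and the other T cell markers with a probe set of their own were dim, and Trac and Lck had none. The part of these cells in the pump values was not tested.

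The genes whose values over the 6 arrays were most like those of Abcb1a were Slc38a9, an amino acid sensor of lysosomes (Pearson r = 0.997), Mfsd7a, of the major facilitator superfamily (r = 0.995), Tsc22d1, a leucine zipper protein (r = 0.992), Pck1, the gluconeogenic enzyme PEPCK (r = 0.991), and Sharpin, of the linear ubiquitin ligase (r = 0.991). Their differences were -0.52, -0.70, -0.38, -0.54 and -0.12. The 6 points share the 2 groups and the normalisation, and 326 of 12070 genes reached r over 0.9, so the likeness is a description. Sharpin shows that the measure ignores size, at 9.35 in each re-fed sample and 9.20 to 9.25 with antibiotics.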

How the data were processed

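The authors deposited log2 expression values of 35557 probe sets on 6 arrays, made with RMA (background correction, quantile normalisation and probe summary), per the submitters' processing notes. No version or annotation is given in the sources used here. Genes were named from the platform's table, in which 21789 of 23410 annotated probe sets name 1 gene. Values of the 23410 were quantile normalised again, since array medians differ, and each gene took its probe set with the highest mean. Groups came from sample titles. The test was limma 3.58.1 under R 4.3.3 (eBayes after lmFit, two-sided, Benjamini-Hochberg over 12071 genes, threshold 0.05), with no block. The procedure was tested on simulated data with independent noise for each value. Those data held no run, unequal array scale or deviating array, so that test does not cover these features. Each p-value sets the group difference against the moderated spread between these samples, which includes any difference in their processing. The number of arrays limits the precision.

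The members, lists and tests were chosen with earlier results of these data known. Named genes were the 8 pumps, per pathway list those past the threshold and the 3 with the smallest unadjusted p, 7 marker checks (Epcam, Ptprc, Cd3e, Pecam1, Car1, Krt20, Slc26a3), and the 5 genes correlating best with Abcb1a. Alternatives covered scaling, the common run, the replicate block, the floor, the choice of probe set, array weights and leaving out each array. Probe sets differ in brightness, so levels are compared within a gene.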

Additional observations from a re-analysis of the deposited data

How the results depend on the processing

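Abcb1a kept its direction in all 15 alternatives and stayed past the threshold in 8. It was chosen for its difference in these arrays, so these counts are a description. With groups that do not overlap, leaving out 1 array could hardly turn its direction. For a gene with 1 probe set, the block, the floor and the choice of probe set cannot change the difference. With the replicate block the difference of Abcb1a was -0.94 (adjusted p = 0.0821, limma) and with dim probe sets kept -0.94 (adjusted p = 0.102, limma). Leaving out 1 array gave -1.055 to -0.84. Deviations of same-numbered arrays correlated at 0.0209, -0.034 and -0.225. With so few arrays per group, these values cannot decide whether the replicate numbers pair the arrays. The replicate block left the count of called genes at 7, but Abcb1a was no longer among them. Abcb1b, Abcc2, Abcc3 and Abcc5 kept their direction, the dim pair moving by less than 1 SD. Abcg2 turned to -0.12 with the deposited scaling, to -0.082 with arrays centred on their median, and ran from -0.070 to 0.20 when 1 array was left out. Abcc1 turned to -0.0019 with the deposited scaling. Abcc4 turned to 0.12 in the common run, 0.14 there with the deposited scaling and 0.12 with array weights, and ran from -0.067 to 0.11 when 1 array was left out. The causes of these changes were not tested. In the fits that tested them, none of the other 7 pumps passed the threshold, and Abcb1b and Abcc2 were tested only with dim probe sets kept (adjusted p = 0.588 and 0.758, limma).

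Over all genes, 7 were called (6 lower, 1 higher), against 45 with the deposited scaling (42 lower, 3 higher), 62 with centred arrays (58 and 4), 58 in the common run (45 and 13), 84 there with the deposited scaling (78 and 6), 2 with no filter, 43 with the stricter filter and 1169 with array weights (667 and 502). Leaving out 1 array gave 0 to 13. In limma's fit with 0, without antibiotics replicate 1, 1040 genes had an unadjusted p under 0.05. The stricter filter, at the 60th percentile, left Abcc4 and Abcc5 untested. Of 177 list medians under the alternatives, 147 moved by less than 1 SD. The median of all genes was -0.118 with the deposited scaling, against which Abcb1a differed by -0.956 and Abcc3 by -0.496.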
